A study of Rattus norvegicus with 20 samples.

Results

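The comparison described here is between the uninjured right dorsal root ganglia (DRG) of rats with a left sciatic nerve injury and the left DRG of sham-operated rats, all fed fish oil. A DRG holds the cell bodies of the sensory neurons that serve one spinal segment, with their satellite glia, Schwann cells, vessels and resident immune cells. The members were chosen by their labels and comprise 6 of the 20 libraries of the series. FOD-CCI-contra (3 libraries) holds the right, contralateral DRG of rats on the fish oil diet (FOD) after chronic constriction injury (CCI), in which loose ligatures are tied around the left sciatic nerve. FOD-CT (3 libraries) holds the left DRG of rats on the same diet after sham surgery, in which the nerve was exposed and left untied. All animals were female Sprague-Dawley rats, 8 to 10 weeks old, and each diet was fed for 4 weeks before surgery. The fish oil diet is a purified rodent diet in which most of the soybean oil was replaced by fish oil, a source of long-chain omega-3 fatty acids, and the soy oil diet (SOD) served as its control. The sources give 1 week after surgery as the time of DRG collection in one place and diets continued for 4 weeks after surgery in another, and the files do not settle which applies. Side and injury cannot be told apart in this comparison, since all contralateral DRG were right and all sham DRG were left. The sham DRG also lay on the operated side, where the nerve was exposed, and the contralateral DRG on the unoperated side. An effect of the sham surgery therefore cannot be told apart from these either. The soy oil counterpart, 3 SOD-CCI-contra against 4 SOD-CT libraries from other rats, is used below for the test of whether the difference depends on diet. Its libraries also entered the filter on low counts and the estimate of spread behind the fish oil comparison.

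Ligation of a peripheral nerve is known to switch on a regeneration program in the axotomized neurons, led by the transcription factor Atf3 and by neuropeptides such as galanin and VIP, and to draw macrophages into the ganglion. The contralateral ganglion contains no ligated axons of its own, but it lies in an animal that has a painful injury, and is often taken as a within-animal control. Dietary omega-3 fatty acids enter membrane phospholipids, feed the synthesis of lipid mediators and act on transcription factors of lipid metabolism, such as the peroxisome proliferator-activated receptors (PPARs) and the sterol regulatory element-binding proteins. The comparison asks whether a DRG on the uninjured side differs from a DRG of an uninjured, sham-operated animal under this diet.

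The library labelled FOD-CCI-contra replicate 1 goes against its tissue label, and FOD-CT replicate 1 holds a mixture. Levels are given throughout as CPM, a gene's counts scaled to the size of its library. Scn10a, the sodium channel of nociceptors, was at 0 CPM in the library labelled FOD-CCI-contra replicate 1, at 228 and 256 CPM in the other 2 contralateral libraries, and at 45.7, 211 and 278 CPM in FOD-CT. Of the 20 genes of the nociceptor list, 9 had no counts in the library labelled FOD-CCI-contra replicate 1, against 0 or 1 in the other 5. Mobp, a myelin protein of oligodendrocytes, was at 571 CPM in FOD-CT replicate 1 and 701 CPM in the library labelled FOD-CCI-contra replicate 1, and at 0.962 CPM or less in the other 4. The glycine transporter Slc6a5, a marker of inhibitory neurons of the spinal cord, was at 218 and 288 CPM in the same pair and at 0.972 CPM or less in the others. Over the 15 genes of the spinal cord glia list the mean log2 CPM was 7.04 and 7.46 in these libraries and between -0.72 and -0.20 in the remaining 4. Replicates 2 and 3 of both groups carry the DRG label without such contradiction, and their genes correlated with Spearman's rho = 0.954 in FOD-CT and 0.945 in FOD-CCI-contra, whereas the library labelled FOD-CCI-contra replicate 1 correlated with the others of its group at 0.837 and 0.825. Skeletal muscle transcripts also varied. The mean log2 CPM of the 16 muscle genes was 6.40, 10.61 and 5.52 in FOD-CT and 4.2, -1.08 and 8.34 in FOD-CCI-contra. Total counts per library ran from 31409402 to 37731035 in FOD-CT and from 22547190 to 26382886 in FOD-CCI-contra, so that every sham library was deeper than every contralateral library. The main results are therefore given for all libraries, 3 against 3, and without both replicate 1 libraries, 2 against 2.

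**Figure D1:**
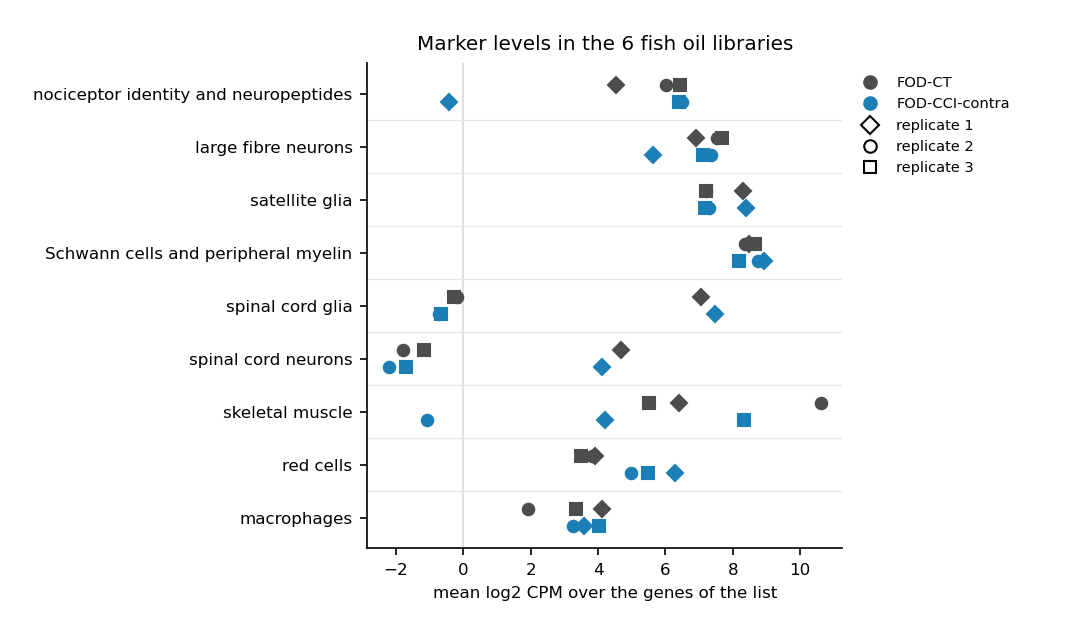
Mean log2 CPM over the genes of 9 marker lists (horizontal axis) in each of the 6 fish oil libraries; colours stand for the groups and shapes for the replicate numbers. Both replicate 1 libraries sit at 7.04 and 7.46 on the spinal cord glia list, where the other 4 lie below 0, and the library labelled FOD-CCI-contra replicate 1 has the lowest nociceptor value, -0.41.

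No gene passed the test between the contralateral and the sham DRG on the fish oil diet. Of 14007 genes tested with edgeR's quasi-likelihood test, 0 (0%) reached a Benjamini-Hochberg adjusted p of 0.1 with a fold change of 1.2, and the smallest adjusted p was 1. DESeq2 on the same libraries also called 0. At an unadjusted p under 0.05 there were 239 genes (1.71% of those tested), 127 of them higher (0.907%) and 112 lower (0.8%) in the contralateral DRG, whereas p-values spread evenly would place 700 genes there. DESeq2 gave 361 such genes (2.58%). The median log2 fold change over all genes was -0.01 and 49.3% of the estimates lay above 0. With the replicate number as a block the count at an unadjusted p under 0.05 was 545 (3.89%, with 281 or 2.01% higher and 264 or 1.88% lower) and 0 genes were called. Without both replicate 1 libraries edgeR again called 0 of 14334 genes (0%), and the count at an unadjusted p under 0.05 was 230 (1.6%), with 96 (0.67%) higher and 134 (0.935%) lower. DESeq2 then called 3 genes (0.0209%), all of them lower. The count of genes at an unadjusted p under 0.05 that appeared in both fits was 89, each with the same direction, and the sign of the estimate was shared by 80.3% of genes. The fits share 4 of the 6 libraries, so this describes how far the replicate 1 libraries decide the estimates. The common biological coefficient of variation, the spread between libraries of a group (1 per rat) as a share of the mean, was 0.492. It covers the 13 libraries of the fit and includes their differences in tissue content. The value was 0.46 with the 6 fish oil libraries alone. Without both fish oil replicate 1 libraries and the muscle-rich SOD-CT replicate 1 it was 0.386.

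All fold changes below are therefore estimates that did not pass the adjusted threshold, and each adjusted p of the fish oil comparison is 1 by edgeR. Fold changes are log2 values of contralateral minus sham with their standard error (SE) and 95% interval, and an interval that leaves out 0 corresponds to an unadjusted p under 0.05.

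Most genes of the nerve injury program had estimates below 0, that is, lower in the contralateral than in the sham DRG, and none was called. Atf3, the transcription factor that marks axotomized neurons, was at 19.6, 42.1 and 13.7 CPM in FOD-CT and at 6.5, 10.3 and 10.4 CPM in FOD-CCI-contra. The ranges did not overlap, which holds for 5.08% of all genes in this direction. The log2 fold change was -1.43 (SE 0.56, 95% interval -2.65 to -0.22), and -1.39 (SE 0.71, 95% interval -2.94 to 0.16) without the replicate 1 libraries. For scale, the injured left DRG on the same diet (FOD-CCI, 4 libraries, 3 of them from the FOD-CCI-contra rats) held 202, 514 and 318 CPM in replicates 2 to 4, and 3.24 CPM in replicate 1, whose spinal cord glia mean of 7.23 places it with the replicate 1 libraries above. Injured replicates 2 to 4 lay above every sham value, and injured replicate 1 below every contralateral value. Without FOD-CT replicate 2 the contralateral-to-sham estimate of Atf3 was -0.84.

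Galanin (Gal, NCBI gene ID 29141), an inhibitory neuropeptide that sensory neurons make after axotomy, stood at 17.2, 56.6 and 12.1 CPM in FOD-CT and at 2.22, 12.8 and 8.16 CPM in FOD-CCI-contra (-1.85, SE 0.89, 95% interval -3.78 to 0.08, and -1.67, SE 1.04, 95% interval -3.95 to 0.60, without the replicate 1 libraries). The highest contralateral library exceeded the lowest sham library, so the groups overlapped, and without FOD-CT replicate 2 the estimate was -0.89. Vip, the vasoactive intestinal peptide induced in the same neurons, was too low for the filter in the fit of all libraries. It was chosen for mention after its values were seen, at 7.76, 24.5 and 3.85 CPM in FOD-CT against 0.0412, 0.851 and 2.3 CPM in FOD-CCI-contra. Sema6a, a transmembrane semaphorin of axon guidance, was at 55.1, 34 and 26.1 CPM in the sham and 45.4, 10.8 and 12 CPM in the contralateral DRG. Its highest contralateral value came from the library labelled FOD-CCI-contra replicate 1, and its estimate went from -0.72 (SE 0.54, 95% interval -1.89 to 0.45) to -1.36 (SE 0.45, 95% interval -2.35 to -0.36) without the pair.

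Over the whole nerve injury list, 24 of 31 genes in the files were tested, of which 7 had estimates above and 17 below 0, with 0 and 1 at an unadjusted p under 0.05. The list's median was -0.26 against -0.01 over all genes tested, and -0.21 against 0.00 without the replicate 1 libraries. Leaving out single libraries moved it between -0.38 and -0.14, the latter without FOD-CT replicate 2, which had the highest Atf3, Gal and Vip of the sham group. FOD-CT replicate 2 was also the sham library richest in muscle transcripts, and the part of this in the values above was not tested. Gap43, a growth cone protein, was at 168, 241 and 168 CPM in FOD-CT and 111, 226 and 179 CPM in FOD-CCI-contra. Jun, an immediate early transcription factor, stood at 88.6, 124 and 85.8 against 55.7, 84 and 123 CPM. These 2 genes were picked after their values were seen, as were Npy (38.3, 34 and 1.45 against 35.9, 2.15 and 6.71 CPM) and Gadd45a (29.4, 43.7 and 29.1 against 38.8, 28.7 and 22.8 CPM), and in all 4 the groups overlapped.

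**Figure D2:**
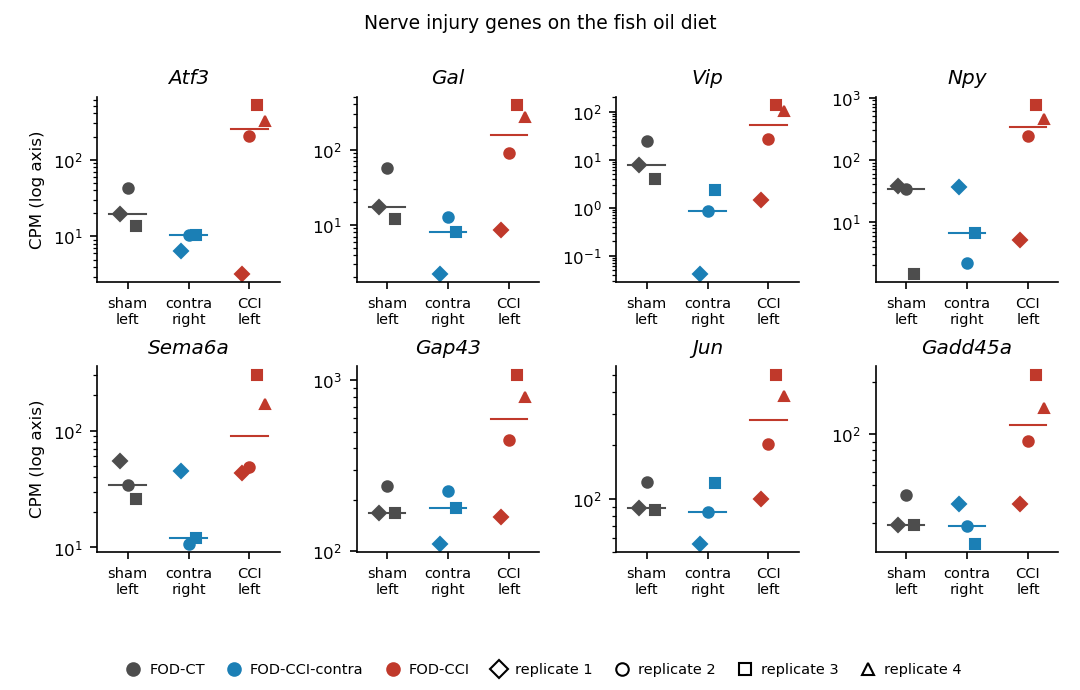
CPM on a log axis of 8 nerve injury genes in the sham left, contralateral right and injured left DRG of rats on the fish oil diet; points are libraries, shapes replicate numbers and horizontal lines group medians (geometric mean of the middle pair for 4 libraries). Contralateral Atf3 values lie at 6.5 to 10.4 CPM, all below the sham values of 13.7 to 42.1 CPM, and injured replicates 2 to 4 lie above both.

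Estimates of nociceptor genes depended on the replicate 1 libraries. Calca, which encodes the nociceptor peptide CGRP, was at 342, 1260 and 1060 CPM in FOD-CT and at 18.2, 1050 and 871 CPM in FOD-CCI-contra. The only low contralateral value belongs to the library labelled replicate 1, and the sham replicate 1 is the lowest of its group. Of 18 nociceptor genes tested, 6 had estimates above 0 and 12 below, with none at an unadjusted p under 0.05 by edgeR, and the median moved from -0.05 to 0.15 (14 of 20 above 0) without the pair. It was 0.48 without the library labelled FOD-CCI-contra replicate 1 alone, -0.50 without FOD-CCI-contra replicate 2, -1.20 with the replicate block and -1.26 with the spinal cord glia score as a covariate. In bulk tissue fewer cells of a type and less RNA per cell cannot be told apart.

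Ion channels of sensory neurons leaned lower in both fits. Of 29 sodium, potassium and calcium channel genes tested, 24 had estimates below 0, with a median of -0.33, and without the replicate 1 libraries 22 of 30 did, with a median of -0.27. None was called. Cacna1a, the pore of P/Q-type calcium channels, was at 50.9, 35.7 and 50.1 CPM in the sham and 26.2, 20.4 and 22.9 CPM in the contralateral DRG (-0.94, SE 0.52, 95% interval -2.07 to 0.19, and -0.94, SE 0.68, 95% interval -2.44 to 0.55, without the pair). Scn3a, the sodium channel Nav1.3 that injured neurons re-express, was at 10.6, 7.41 and 6.44 against 6.42, 3.29 and 2.89 CPM (-0.92, SE 0.51, 95% interval -2.02 to 0.18, and -1.12, SE 0.61, 95% interval -2.46 to 0.21, without the pair). All contralateral values of both genes lay below all sham values, as in 3 of the 29 channel genes and 5.08% of all genes. In the other direction stood Kcnk2, the mechanosensitive potassium channel TREK-1, at 15.3, 14.4 and 13 CPM in the sham and 17.3, 30.4 and 31.2 CPM in the contralateral DRG. Its estimate was 0.92 (SE 0.44, 95% interval -0.03 to 1.87) and 1.21 (SE 0.53, 95% interval 0.03 to 2.38) without the pair. These channels are encoded by long transcripts, and with offsets for gene length the median of the list was -0.04, with 12 of 29 above 0, beside a median of 0.10 over all genes in that fit. Such offsets also moved the genes at an unadjusted p under 0.05 to 159 higher and 56 lower. Estimates ran against gene length across the 14007 genes with Spearman's rho = -0.32 (-0.30 without the pair), a description over genes that share the same libraries.

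The transcription factors that specify sensory neurons had a median of -0.44 (11 of 13 below 0), and -0.33 without the replicate 1 libraries. It was 0.05 without the library labelled FOD-CCI-contra replicate 1 alone, -0.79 without FOD-CT replicate 1 and -0.83 with the replicate block. Pou4f1 (Brn3a) was at 54.9, 163 and 154 CPM in FOD-CT and 15.4, 144 and 101 CPM in FOD-CCI-contra, and Runx1, which sets the non-peptidergic nociceptor fate, at 5.7, 6.78 and 10.7 against 0.412, 5.81 and 5.35 CPM. In Runx1 the contralateral replicates 2 and 3 still lay within or just below the sham range, and neither gene reached an unadjusted p under 0.05. Large fibre neuron genes had a median of -0.23 and -0.21 in the respective fits, but 0.05 without the library labelled FOD-CCI-contra replicate 1 alone and -0.43 without FOD-CT replicate 1. Satellite glia and Schwann cell genes had medians of 0.23 and 0.22 with all libraries and 0.09 and 0.05 without the replicate 1 pair. Leaving out single libraries moved the satellite glia median from -0.17, without the library labelled FOD-CCI-contra replicate 1, to 0.50, without FOD-CT replicate 1, and the Schwann cell median from 0.09 to 0.45.

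The genes with the smallest p in the comparison were of mixed function. Inpp5e (114089), a phosphoinositide phosphatase of the primary cilium, was at 28.6, 17.5 and 18.3 CPM in FOD-CT and at 9.3, 7.36 and 8.47 CPM in FOD-CCI-contra, means of 21.5 ± 6.15 and 8.38 ± 0.973 CPM (SD, n = 3 each). Every contralateral library lay below every sham library, and the log2 fold change was -1.32 (SE 0.31, 95% interval -1.99 to -0.66), or -1.14 (SE 0.34, 95% interval -1.89 to -0.39) without the replicate 1 libraries. Masp2, the protease that starts complement activation by the lectin route, stood at 3.78, 4.5 and 5.96 CPM in the sham and 1.19, 1.44 and 1.52 CPM in the contralateral DRG (-1.73, SE 0.57, 95% interval -2.96 to -0.51, and -1.77, SE 0.72, without the pair). Ppp1r3e, which targets protein phosphatase 1 to glycogen, was at 4.93, 5.04 and 6.67 against 2.26, 2.26 and 0.936 CPM (-1.57, SE 0.49, 95% interval -2.63 to -0.51, and -1.83, SE 0.61, without the pair). Neither overlapped, at levels of a few CPM, where 5.08% of all genes were separate in this direction.

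Further lower genes of this group were Msantd2 (-2.21), the retrotransposon-derived Rtl4 (-1.99), the elastase Cela2a (-2.27), the transcription factor E4f1 (-1.35), the imprinted long non-coding RNA Meg3 (-1.98) and the pseudogene Ap2b1-ps1 (-1.49). Among the 10 lower genes the groups were separate in 9, all but Meg3, and 8 kept an unadjusted p under 0.05 without the replicate 1 libraries. The genes were chosen on this very contrast, so these counts describe them and test nothing. The exceptions were E4f1 and Meg3.

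Arpp19 (60336), an inhibitor of protein phosphatase 2A that is regulated by cyclic AMP, led the higher genes that are not copies of ribosomal or other genes. It was at 31.3, 30.7 and 40.5 CPM in FOD-CT and 68.8, 55.8 and 55.5 CPM in FOD-CCI-contra, means of 34.2 ± 5.46 and 60 ± 7.57 CPM (SD, n = 3 each). The gap between the groups exceeded the spread within either, with an estimate of 0.85 (SE 0.24, 95% interval 0.34 to 1.37), or 0.69 (SE 0.29, 95% interval 0.05 to 1.32) without the pair. Hist3h2ba (303175), an H2B histone, was at 19.8, 18.6 and 16.9 CPM against 24.6, 41.6 and 42.8 CPM. Here the library labelled replicate 1 lay nearest to the sham group, and the estimate of 1.01 (SE 0.31, 95% interval 0.35 to 1.68) became 1.29 (SE 0.35, 95% interval 0.53 to 2.05) without it and its sham counterpart. Ramp3, a subunit of receptors for adrenomedullin and amylin, was at 23.9, 21 and 22.5 CPM in the sham and 34.7, 33 and 44.9 CPM in the contralateral DRG (0.78, SE 0.26, 95% interval 0.22 to 1.34). C2h4orf3 was at 97.3, 91.6 and 86.1 against 184, 152 and 135 CPM (0.82, SE 0.26, 95% interval 0.25 to 1.38), and Gipr, the receptor for the incretin GIP, at 0.372, 1.09 and 0.509 against 3.29, 3.52 and 1.68 CPM (2.14, SE 0.71, 95% interval 0.60 to 3.68). Ramp3 and C2h4orf3 stayed at an unadjusted p under 0.05 without the replicate 1 libraries, and Gipr did not. Their estimates were then 0.88, 0.74 and 1.73, in that order. Copies of housekeeping genes were also among the leading genes, namely Rpl12a-ps1, Rpl32l5, Metap2-ps4 and Rps19l3, with estimates from 1.64 to 2.85.

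Without both replicate 1 libraries the order of genes changed. Ttc14 (310314) led the lower genes at 8.2 and 11 CPM in FOD-CT against 2.33 and 1.21 CPM in FOD-CCI-contra (-2.40, SE 0.53, 95% interval -3.56 to -1.24, adjusted p = 1). The replicate 1 libraries held 5.93 and 8.03 CPM, in the other order, and with them the estimate was -1.08 (SE 0.59, 95% interval -2.36 to 0.21). Ttc14 was 1 of the 3 genes that DESeq2 called in this setting, at an adjusted p of 0.0345 (0.0345 to 1 over all alternatives), with LOC102547287 (adjusted p = 0.0376) and LOC108349687 (adjusted p = 0.0947), which are outside the naming rule and given because the count is small. Cdh9, a cadherin of neurons, was at 9.81 and 13.8 against 2.37 and 3.2 CPM (-2.04, SE 0.50, 95% interval -3.14 to -0.94), and Celf3, a neuronal RNA-binding protein, at 5.68 and 5.53 against 1.55 and 0.858 CPM (-2.17, SE 0.64, 95% interval -3.58 to -0.77). Peli3, a ubiquitin ligase of innate immune signalling, followed at 13.6 and 11.2 against 3.74 and 2.19 CPM (-2.02, SE 0.52, 95% interval -3.16 to -0.88). The other lower genes were Brd10, C19h1orf131, Fancm, Ribc1 and Ppp6r3, with estimates from -2.27 to -0.80. Ribc1 turned sign between the fits, since the library labelled FOD-CCI-contra replicate 1 held 15.1 CPM and the other contralateral libraries 0.481 and 0.624 CPM.

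On the higher side of the same setting, Spr (29270), sepiapterin reductase of tetrahydrobiopterin synthesis, was at 34.5 and 35.6 CPM in the sham and 60 and 73 CPM in the contralateral DRG (0.96, SE 0.27, 95% interval 0.37 to 1.55). Frk, a Src-family kinase, was at 0.851 and 2.16 against 9.55 and 5.74 CPM (2.38, SE 0.71, 95% interval 0.81 to 3.94), and Gna15, a G protein alpha subunit of blood cells, at 0.395 and 0.484 against 2.59 and 3.51 CPM (2.82, SE 0.81, 95% interval 1.03 to 4.61). Ltbp2, a matrix protein, stood at 5.74 and 3.67 against 11.7 and 12.2 CPM (1.38, SE 0.42, 95% interval 0.45 to 2.31). With 2 libraries a group the ranges are separate for 15.9% of all genes upwards and 20.2% downwards, so separation carries little weight here. The other genes were Amdhd2 (1.04), the protease inhibitor Spint2 (1.66) and the peroxisomal thiolase Acaa1a (0.84).

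**Figure D3:**
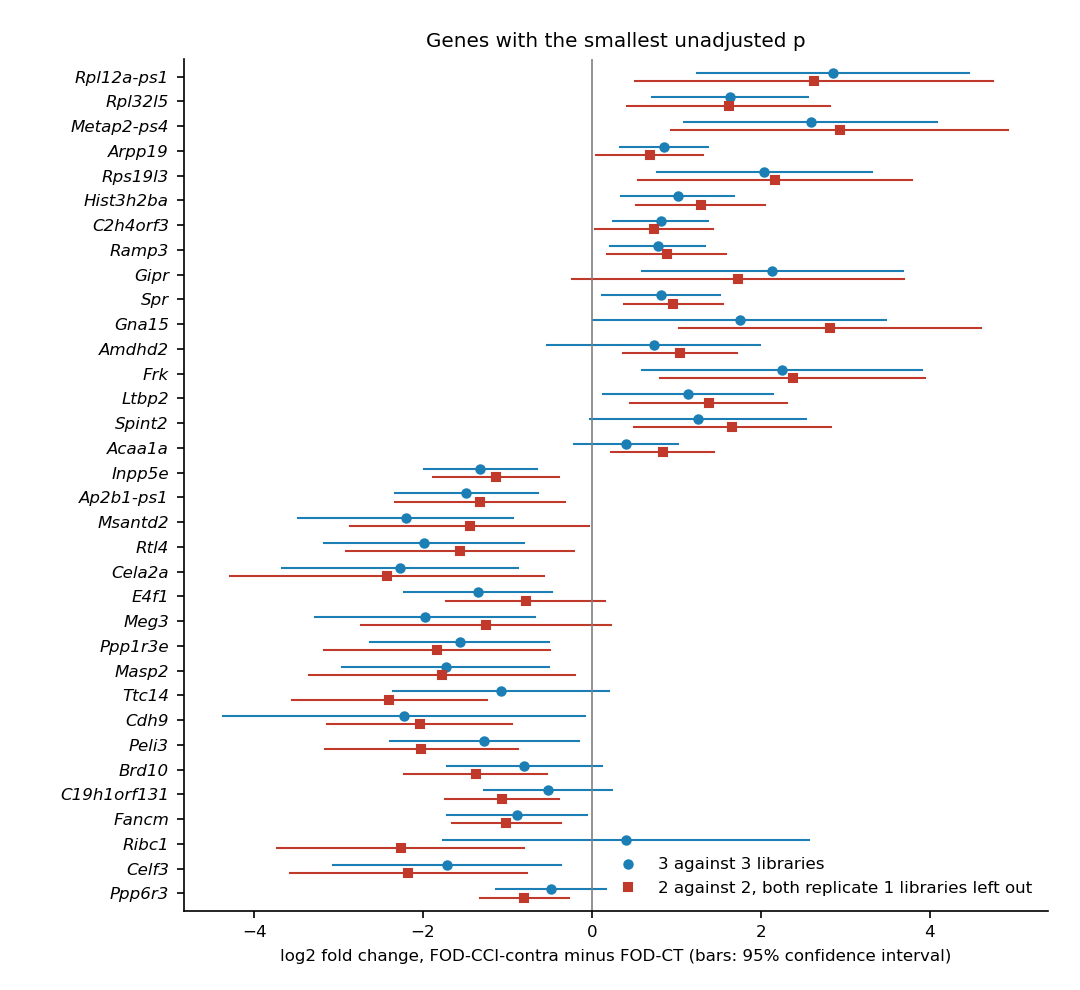
Log2 fold change, FOD-CCI-contra minus FOD-CT, with 95% confidence intervals from edgeR (horizontal axis), of 34 of the genes with the smallest p in each direction in either fit; circles stand for 3 against 3 libraries and squares for 2 against 2. Inpp5e lies at -1.32 and -1.14 in the respective fits, while Ribc1 changes from 0.40 to -2.27.

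Most genes of the translation machinery had estimates above 0, by small amounts. Of 84 cytosolic ribosomal protein genes tested, 81 had estimates above 0, where 49.3% of all genes did, and the list's median was 0.47, or 0.44 without the replicate 1 libraries (79 of 84). Only 2 reached an unadjusted p under 0.05 and none was called. Rps14 (29284) was at 423, 614 and 577 CPM in FOD-CT and 746, 984 and 1510 CPM in FOD-CCI-contra (1.04, SE 0.48, 95% interval 0.00 to 2.08, and 1.10, SE 0.58, 95% interval -0.18 to 2.39, without the pair). Rpl34 (362041) was at 140, 128 and 110 against 263, 172 and 215 CPM (0.82, SE 0.34, 95% interval 0.09 to 1.55, and 0.74, SE 0.42, 95% interval -0.17 to 1.66, without the pair). Every contralateral library exceeded every sham library in both genes, as it did in 35 of the 84, against 3.98% of all genes. The share of all counts taken by the 101 ribosomal protein genes was 2.36%, 2.44% and 2.36% in FOD-CT and 3.27%, 2.94% and 3.80% in FOD-CCI-contra, so the groups did not overlap in the sum either.

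Ribosomal protein messages are short, and the offsets for gene length lowered their median to 0.30, with 70 of 84 above 0, beside the all-gene median of 0.10 in that fit. Of the 127 genes that were higher at an unadjusted p under 0.05, 13 carried a ribosomal protein name (10.2%, against 1.19% of all genes tested) and 21 were annotated pseudogenes (16.5% against 2.56%), with a median length of 1126 bases against 2360. The 112 lower genes held 0 ribosomal names and 2 pseudogenes, with a median length of 3474 bases. How the counting treated reads that match several copies is not given in the sources used here, so the split between a ribosomal gene and its copies is uncertain.

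Mitochondrial gene groups had medians of the same sign on a smaller scale. Of 73 mitochondrial ribosomal protein genes 58 had estimates above 0, with a median of 0.20 and 4 at an unadjusted p under 0.05. Without the replicate 1 libraries 56 did, with a median of 0.19 and 1 at that level. Mrps25 was at 34.7, 32.1 and 41.9 CPM in the sham and 69.2, 50.4 and 54.4 CPM in the contralateral DRG (0.72, SE 0.27, 95% interval 0.14 to 1.30), and Mrpl55 at 27.1, 28.6 and 22.3 against 32.6, 39.5 and 43.1 CPM (0.60, SE 0.25, 95% interval 0.06 to 1.14). The groups were separate upwards in both genes, as in 9 of the 73, against 3.98% of all genes. Without the pair the estimates were 0.54 (95% interval -0.18 to 1.27) for Mrps25 and 0.74 (95% interval 0.06 to 1.41) for Mrpl55. Of 82 nuclear genes of oxidative phosphorylation 72 had estimates above 0, with a median of 0.27 (0.30 without the pair) and none at an unadjusted p under 0.05. Length offsets brought the mitochondrial ribosomal and oxidative phosphorylation medians to 0.14 and 0.16, in that order. These lay only slightly above the median of 0.10 over all genes in that fit.

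Transcripts of blood cells had estimates above 0 with wide errors, and none was called. The animals were perfused with saline before dissection, which clears most blood from the vessels. Hba-a1 (25632), an alpha globin, was at 505, 429 and 183 CPM in FOD-CT and 2790, 638 and 1310 CPM in FOD-CCI-contra. The groups were separate, as in 6 of the 9 red cell genes tested, against 3.98% of all genes upwards. The Hba-a1 estimate was 2.12 (SE 1.16, 95% interval -0.39 to 4.64), or 1.71 (SE 1.45, 95% interval -1.47 to 4.89) without the replicate 1 libraries. All 9 red cell genes tested had estimates above 0, with a median of 1.93 (7 of 9, with a median of 1.71, without the pair), and the summed level of the 11 genes was 608 to 1070 CPM in the sham and 1410 to 5280 CPM in the contralateral DRG. S100a8, a calcium-binding protein of neutrophils, was at 9.19, 26.5 and 10.2 CPM against 141, 42.2 and 55.4 CPM (2.42, SE 1.12, 95% interval -0.00 to 4.85, and 1.45, SE 1.36, 95% interval -1.54 to 4.44, without the pair). Hemoglobin genes are near-identical copies, and their individual values are uncertain for the reason given for ribosomal copies.

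Macrophage genes leaned the same way, more so among replicates 2 and 3. Lyz2 (25211), the lysozyme of myeloid cells, was at 150, 105 and 201 CPM in FOD-CT and 175, 280 and 408 CPM in FOD-CCI-contra (0.96, SE 0.49, 95% interval -0.11 to 2.02, and 1.21, SE 0.61, 95% interval -0.13 to 2.55, without the pair). The complement component C1qa was at 65.4, 17.5 and 24.8 against 107, 26.5 and 64.9 CPM (0.92, SE 0.58, 95% interval -0.34 to 2.18, and 1.15, SE 0.57, without the pair), and Csf1r, the receptor that keeps macrophages alive, at 88.7, 19 and 36.5 against 102, 44.1 and 56.1 CPM. Replicate 1 is the highest of its group for C1qa and Csf1r in both groups, and the groups overlapped in all 3 genes. Of 11 macrophage genes 9 had estimates above 0, with a median of 0.52, and 11 of 12 did without the replicate 1 libraries, with a median of 0.81. The median fell to 0.14 without FOD-CT replicate 2, which had the lowest macrophage level of the sham group (1.93 against 4.12 and 3.34 mean log2 CPM). Complement genes followed with a median of 0.44 (0.71 without the pair, 0.12 without FOD-CT replicate 2). C3 was at 37.5, 1.82 and 8.56 CPM in the sham and 51.6, 13.6 and 18.3 CPM in the contralateral DRG, so that the replicate 1 libraries were high in both groups.

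No gene of lipid metabolism, the pathway nearest to the diet, was called. The desaturases of polyunsaturated fatty acid synthesis were at 229, 277 and 255 CPM in FOD-CT and 179, 287 and 225 CPM in FOD-CCI-contra for Fads1, and at 89, 120 and 123 against 78.2, 126 and 151 CPM for Fads2, both named for their role in omega-3 metabolism after their values were seen. The 95% intervals of the log2 difference were -0.69 to 0.49 and -0.60 to 0.87, in that order, and the estimates were -0.01 and 0.23 without the replicate 1 libraries. Of 19 genes of fatty acid synthesis 13 had estimates below 0, with a median of -0.12 (-0.07 without the pair, and -0.25 to 0.05 on leaving out single libraries). The only one at an unadjusted p under 0.05 was a second entry for the elongase Elovl5 in the files, at 2.23, 1.91 and 4.64 against 1.4, 1.3 and 0.39 CPM (-1.47, SE 0.65, 95% interval -2.88 to -0.06, and -1.91, SE 0.83, without the pair), a low-count copy whose reads may be shared with the main entry. The 25 cholesterol genes had a median of 0.06 (0.01 without the pair, and -0.10 to 0.16 on leaving out single libraries).

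Among 29 PPAR targets and genes of fatty acid oxidation, 22 had estimates below 0 and the median was -0.11, with none at an unadjusted p under 0.05 by edgeR. The median was -0.15 without the pair and ranged from -0.23 to 0.02 on leaving out single libraries. Genes of eicosanoid and omega-3 mediator synthesis had a median of 0.25 (0.19 without the pair), with 14 of 20 above 0 in either fit. Lta4h, which makes leukotriene B4, was at 32.4, 32.1 and 34.7 against 43.3, 49.7 and 39.2 CPM (0.45, SE 0.21, 95% interval -0.01 to 0.91, and 0.45, SE 0.27, without the pair), and Alox5ap, the activating protein of 5-lipoxygenase, at 4.75, 2.4 and 5.09 against 6.63, 5.22 and 12.6 CPM (1.03, SE 0.55, 95% interval -0.16 to 2.23, and 1.29, SE 0.70, without the pair). Ptger4, a receptor for prostaglandin E2, stood at 4.58, 4.98 and 8.05 against 2.1, 2.96 and 3.28 CPM (-1.04, SE 0.50, 95% interval -2.11 to 0.03, and -1.02, SE 0.60, without the pair). The groups did not overlap in these 3 genes, which were among the members with the smallest p, and none was called. Of the 20 tested, 2 were separate upwards and 1 downwards, against 3.98% and 5.08% of all genes.

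Genes of selenoproteins, which include the glutathione peroxidases that reduce lipid peroxides, and of selenium metabolism had a median of 0.17. Of the 29 tested, 19 had estimates above 0 and 1 had an unadjusted p under 0.05. Without the replicate 1 libraries the median was 0.19, with 20 of 29 above 0 and 3 at that level. Over 3 against 3 libraries 0 of the 29 were separate upwards and 2 downwards, against 3.98% and 5.08% of all genes. Gpx4, the peroxidase that guards against ferroptosis, was at 487, 878 and 834 CPM in FOD-CT and 520, 1190 and 1460 CPM in FOD-CCI-contra (0.57, SE 0.47, 95% interval -0.44 to 1.57, and 0.67, SE 0.48, 95% interval -0.39 to 1.73, without the pair). It was named for its role in the study after its values were seen. Both replicate 1 libraries were low, and with all libraries the groups overlapped. Among the others the contralateral values exceeded the sham values, as they did for 15.9% of all genes. Selenof, a selenoprotein of the endoplasmic reticulum, was at 60.1, 77.6 and 62 CPM against 76.1, 114 and 159 CPM (0.84, SE 0.31, 95% interval 0.16 to 1.52, and 1.01, SE 0.36, 95% interval 0.23 to 1.79, without the pair), with an overlap of the groups at the lowest contralateral library. Without the replicate 1 libraries Dio2, a thyroid hormone deiodinase, was at 0.82 and 2.01 against 4.55 and 7.06 CPM (2.07, SE 0.70, 95% interval 0.54 to 3.60), and Cbs, an enzyme of the transsulfuration pathway, at 1.03 and 1.2 against 16.3 and 8.27 CPM (3.5, SE 1.23, 95% interval 0.79 to 6.21). Replicate 1 reversed this for Cbs, with 39.8 CPM in the sham and 16.6 CPM in the contralateral library, and the estimate over all libraries was -0.01. The lists for NRF2 targets, the integrated stress response, heat shock and interferon had medians between -0.02 and 0.10, with no gene at an unadjusted p under 0.05 by edgeR. The interferon median was -0.12 without the replicate 1 libraries.

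Of the 15 proliferation genes tested, 10 had estimates above 0, with a median of 0.19 (0.21 without the pair, and 0.00 to 0.33 on leaving out single libraries). Tpx2, a spindle protein, had an estimate of -2.81 (SE 1.05, 95% interval -5.08 to -0.56). It was at 2.69, 29.8 and 1.94 CPM in FOD-CT and 1.03, 1.89 and 1.83 CPM in FOD-CCI-contra, and the high value is that of FOD-CT replicate 2. The estimate was -3.05 (SE 1.23, 95% interval -5.75 to -0.35) without the pair and -0.51 without FOD-CT replicate 2.

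**Figure D4:**
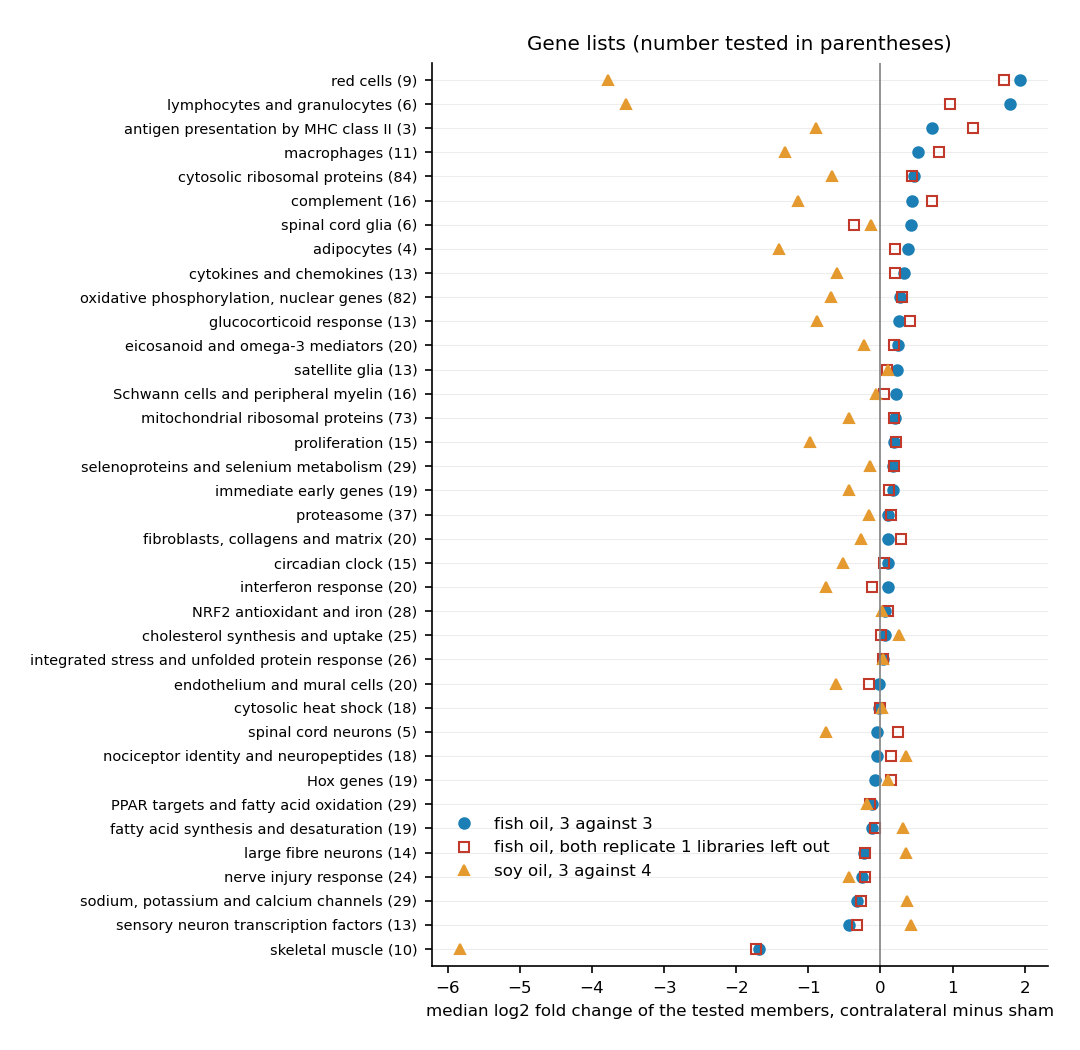
Median log2 fold change, contralateral minus sham (horizontal axis), over the tested members of 37 gene lists; circles stand for fish oil with 3 against 3 libraries, squares for fish oil without both replicate 1 libraries and triangles for soy oil with 3 against 4. Red cell genes lie at 1.93 on fish oil and -3.78 on soy oil, and the median over all genes tested is -0.01 on fish oil.

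Whether the contralateral-to-sham difference depends on diet was tested as the difference between the fish oil and the soy oil changes, with no rat shared between them. By edgeR 0 of 14007 genes (0%) were called for this difference. At an unadjusted p under 0.05 stood 637 (4.55%), with 521 (3.72%) higher and 116 (0.828%) lower on fish oil. DESeq2 called 25 genes (0.178%), 24 of them higher, and 11 (0.0767%) without the replicate 1 libraries of the fish oil groups. The 25 included S100a9, Ngp and Camp of the lymphocyte and granulocyte list and Hba-a3 of the red cell list. The soy oil medians of these lists depended on SOD-CT replicate 4, as given below, and DESeq2 was not run without that library. The soy oil comparison itself gave 0 called by edgeR and 52 (0.371%) by DESeq2, with 989 genes (7.06%) at an unadjusted p under 0.05, 837 of them (5.98%) lower in the contralateral DRG. Estimates of the diets had the same sign in 44.8% of genes, and in 48% when both fish oil replicate 1 libraries and SOD-CT replicate 1, whose muscle genes took 14.7% of all counts, were left out. The 24 genes at an unadjusted p under 0.05 on both diets made up 10% of the fish oil and 2.43% of the soy oil genes, and 5 of them shared their direction.

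Stk17b (170904), a kinase of apoptosis and T cell signalling, was at 8.53, 8.08 and 9.42 CPM in FOD-CT and 16.4, 14.9 and 12.4 CPM in FOD-CCI-contra, and at 10.8, 14.4, 13 and 16.7 CPM in SOD-CT against 7.13, 5.94 and 7.56 CPM in SOD-CCI-contra. The contralateral libraries lay above the sham on fish oil and below it on soy oil, with no overlap on either diet. On fish oil 3.98% of all genes were separate upwards. The genes of this and the next paragraph were chosen on this very difference between diets. Separation of their groups therefore describes them and tests nothing. The difference of the changes was 1.82 (SE 0.42, 95% interval 0.92 to 2.72, adjusted p = 0.921 by edgeR and 0.00603 by DESeq2). Tprkb, a subunit of the KEOPS complex that modifies transfer RNA, was at 14.4, 15.4 and 19.6 against 24.8, 26 and 29.7 CPM on fish oil and at 27.2, 23.4, 22.4 and 36.8 against 17.3, 9.47 and 14.2 CPM on soy oil. Its difference was 1.80 (SE 0.41, adjusted p = 0.921 by edgeR and 0.0374 by DESeq2), again with separate groups on both diets. Neither gene was among the 11 that DESeq2 called without the fish oil replicate 1 libraries. The ribosomal copies Rpl36al-ps2 (2.78), Rpl39-ps12 (3.00) and Rpl12a-ps1 (4.16) completed the higher side.

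On the lower side Sphkap, an anchoring protein for protein kinase A, was at 34, 31.4 and 50.9 CPM in FOD-CT and 15, 26.5 and 17.4 CPM in FOD-CCI-contra, against 16.8, 46.4, 30.5 and 19.3 CPM in SOD-CT and 42.3, 46.4 and 59.8 CPM in SOD-CCI-contra. The difference was -1.72 (SE 0.51, 95% interval -2.82 to -0.63, adjusted p = 0.921 by edgeR). Bltp3a, a lipid transfer protein, was at 25.1, 29.1 and 27.4 against 17.2, 13.9 and 14.2 CPM on fish oil, while its soy oil groups overlapped (-1.19, SE 0.37, 95% interval -1.98 to -0.39). Dnajc11 (-1), Mab21l2 (-1.35) and Ap2b1-ps1 (-1.99) were the others.

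Gene groups of blood, macrophages and ribosomes had opposite medians on the diets, as did several groups of sensory neurons. Red cell genes had medians of 1.93 on fish oil and -3.78 on soy oil, the latter -1.46 without SOD-CT replicate 4, in which Hba-a1 reached 5410 CPM against 77.1 to 702 CPM in the other sham libraries. Lymphocyte and granulocyte genes, of which 6 of 18 were tested, had medians of 1.80 and -3.53, the latter -1.36 without the same library. The members with the smallest p on fish oil were S100a8, S100a9, Ngp and Camp. Macrophage genes had medians of 0.52 and -1.32, and all 11 differences lay above 0, with 4 at an unadjusted p under 0.05. Lyz2 was at 83.6, 255, 235 and 424 CPM in SOD-CT and 54.6, 72.3 and 101 CPM in SOD-CCI-contra, and its difference was 2.71 (SE 0.69, adjusted p = 0.921 by edgeR and 0.0683 by DESeq2). Leaving out SOD-CT replicate 4 kept the macrophage median at -1.25 on soy oil. Ribosomal protein genes had medians of 0.47 and -0.67, with all 84 differences above 0 and 36 at an unadjusted p under 0.05, but the soy oil median was -0.22 without SOD-CT replicate 1, the muscle-rich library. Oxidative phosphorylation genes had medians of 0.27 and -0.69, the latter 0.06 without SOD-CT replicate 1. Channel genes had medians of -0.33 on fish oil and 0.37 on soy oil, where 26 of 29 lay above 0. Sensory neuron transcription factors had medians of -0.44 and 0.43, large fibre genes -0.23 and 0.36, and fatty acid synthesis genes -0.12 and 0.31. Without SOD-CT replicate 1 the soy oil medians of the channel, transcription factor, large fibre and fatty acid groups were 0.19, 0.29, 0.11 and 0.17.

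Most nerve injury genes tested had estimates below 0 on both diets, and none was called by edgeR. Atf3 was at 20.3, 44.7, 12.5 and 48.5 CPM in SOD-CT and 6.26, 14.8 and 8.48 CPM in SOD-CCI-contra, an estimate of -1.71 (SE 0.54, 95% interval -2.89 to -0.54) beside -1.43 on fish oil. The difference between diets was 0.28 (SE 0.76, 95% interval -1.36 to 1.92), so the files leave room for a difference of either sign. The list's median was -0.44 on soy oil and -0.26 on fish oil, with 20 and 17 of 24 genes below 0. The soy oil median was -0.07 without SOD-CT replicate 2 and -0.04 with the replicate block. With the 3 libraries rich in spinal cord or muscle transcripts left out, 568 genes (3.83%) on fish oil and 891 (6%) on soy oil were at an unadjusted p under 0.05. The number shared was 51, or 8.98% of the fish oil and 5.72% of the soy oil genes, and 7 of them shared their direction, all lower in the contralateral DRG. They were Vip, the basement membrane collagen Col4a6, the endothelial sialomucin Emcn, the Toll-like receptor inhibitor Irak3, the adaptor protein Stac2 and the zinc finger genes Zfp62 and Zfp81, named after their values were seen. Vip had estimates of -3.13 on fish oil and -5.54 on soy oil in that fit. The rest of the 51 had opposite signs on the diets. All of these but Cpeb3, Dgkq and Ptprd were higher on fish oil and lower on soy oil, among them Lyz2, C1qa, C3 and Rps14.

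**Figure D5:**
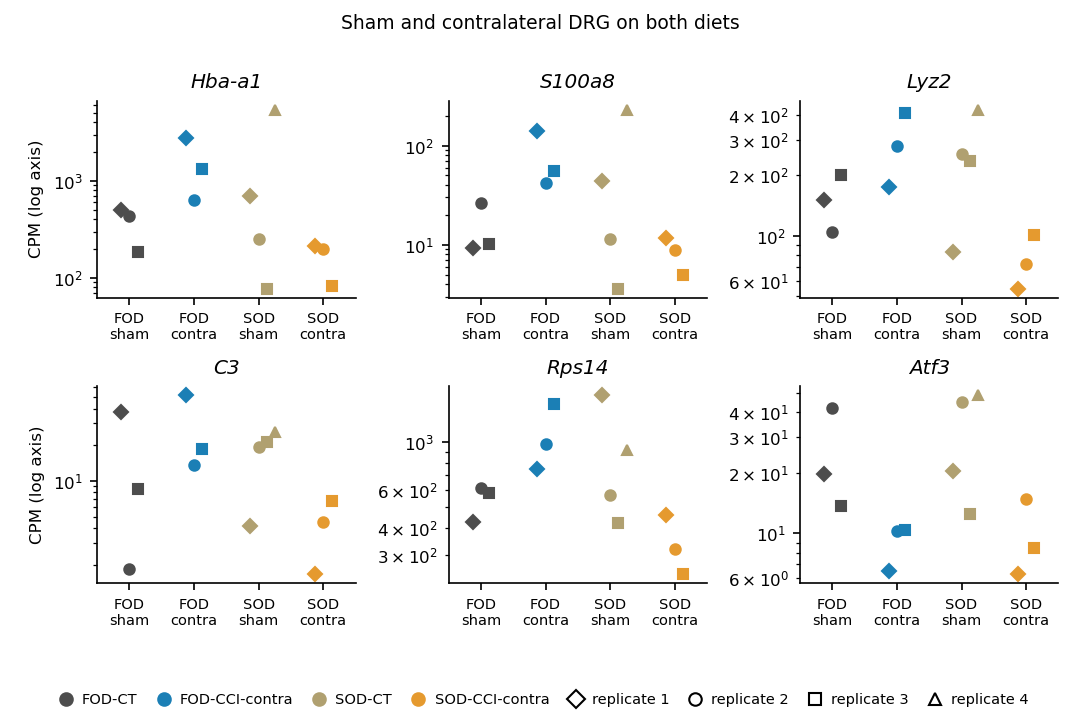
CPM on a log axis of 6 genes in the sham and contralateral DRG on the fish oil (FOD) and soy oil (SOD) diets; points are libraries and shapes replicate numbers. Contralateral Lyz2 lies at 54.6 to 101 CPM on soy oil and 175 to 408 CPM on fish oil, and contralateral Atf3 at 6.26 to 14.8 CPM over both diets.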

How the data were processed

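RNA of rat DRG was sequenced after poly-A selection. Per the labels and the study's methods, the authors used fastp for read trimming, HISAT2 for alignment and featureCounts 1.5.0-p3 to make counts per gene; the genome build, strand setting and treatment of reads with several matches are not given in the sources used here. The deposited raw counts (whole numbers per NCBI gene ID) were used, and the FPKM values that the authors deposited beside them were not. Of 39747 identifiers, 28101 (70.7%) matched the RefSeq table by ID.

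Genes with at least 10 counts in 90% of libraries were tested with edgeR 4.0.16 (TMM, quasi-likelihood test, R 4.3.3) over 13 libraries, 1 DRG a rat: FOD-CT, FOD-CCI-contra, SOD-CT and SOD-CCI-contra. Genes that reached 0.1 or less after Benjamini-Hochberg adjustment, with a 1.2-fold difference or more, are termed called. CPM values use TMM library sizes. Alternatives included DESeq2 1.42.0, other filters, leaving out each library and a replicate block. The replicate block was an alternative only, and the main fit did not pair libraries. Deviations from the group means correlated at 0.58, 0.16 and 0.22 between same-numbered fish oil libraries. The 0.58 belongs to the replicate 1 libraries, which both hold spinal cord transcripts, and without them the correlation was -0.13. On soy oil the values were 0.16, -0.07 and 0.38, so these correlations do not establish a pairing. The labels do not say what a number shares. A permutation test of 3 against 3 libraries cannot go below p = 0.1 (exact, two-sided) and was not run. P-values measure the spread between rats, 1 library each, which includes the differences in tissue content described above.

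Named genes are the 10 with the smallest p each way with and without both replicate 1 libraries, up to 4 per list, tissue markers, and the 5 with the smallest p each way for the difference between diets, among genes with assigned symbols. A few of these are not reported here. Members and lists were chosen with earlier results of these data known. The code was tested on simulated data.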

Additional observations from a re-analysis of the deposited data

Results flagged for a closer look

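SOD-CT replicate 1 is a soy oil sham library that entered the comparison between diets and the estimate of spread of the fish oil comparison. In it 3 of 37 gene lists had a level apart from the other 3 libraries of its group. The mean log2 CPM of macrophage genes was 0.11, against 3.56 to 3.70 in the others. That of satellite glia genes was 6.55, against 7.19 to 7.23, and that of cholesterol genes was 5.91, against 6.70 to 6.76. Skeletal muscle genes took 14.7% of the counts of this library, and their part in these levels was not tested. Chance alone would set about 1 in 20 such groups apart. The fish oil groups, with 3 libraries each, are too small for this criterion.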

How the results depend on the processing

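The count of 0 called genes in the fish oil comparison held under every alternative except DESeq2 without both replicate 1 libraries, which called 3. The number of genes at an unadjusted p under 0.05 (239) was 362 with the 6 fish oil libraries alone, 545 with the replicate block, 361 with DESeq2, 578 with no filter on low counts, 671 with filterByExpr, 416 with the spinal cord glia score as a covariate, 441 with gene length offsets and the replicate block, and 568 without the 3 libraries rich in other tissues. Leaving out single libraries moved it from 160 (without FOD-CT replicate 2) to 478 (without FOD-CCI-contra replicate 1), with 475 without SOD-CT replicate 1 and 397 without FOD-CCI-contra replicate 2. For the difference between diets, DESeq2 called 25 genes, or 11 without the fish oil replicate 1 libraries, and 637 genes became 1010 with the replicate block, 1332 with no filter and 973 with filterByExpr. Leave-one-out counts ran from 441 to 941. The cause of these shifts was not tested.

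Of 76 named genes followed through the alternatives, 9 turned sign in at least 1. Ribc1 (0.40) was at -2.27 without both replicate 1 libraries by edgeR and DESeq2 and without the 3 libraries, -2.26 with the block as well, -1.17 with the block with or without length offsets, and -0.98 with the covariate. Leaving out single libraries gave -2.89 to 0.99. Cbs (-0.01) was at 3.5 without both replicate 1 libraries by either tool, 3.49 without the 3 libraries, 3.42 with the block and without the pair, 2.05 with the block, 2.16 with the covariate, 0.18 with length offsets, 2.15 with both, and 0.01 with the 6 fish oil libraries, DESeq2 or its size factors. Leaving out single libraries gave -0.55 to 3.64. Of the others, Gap43 (-0.13) and Jun (-0.14) were at 0.02 without the pair by either tool and without the 3 libraries, and at 0.04 and 0.02 with the block and without the pair, with Jun at 0.00 with length offsets. Fads1 (-0.10) was at 0.06 with length offsets and 0.05 with the block added. Leaving out single libraries gave -0.37 to 0.10 for Gap43, -0.49 to 0.09 for Jun, -0.29 to 0.05 for Fads1, -0.10 to 0.35 for Fads2 (0.13), -0.95 to 0.15 for Calca (-0.42), -1.05 to 0.02 for Pou4f1 (-0.48) and -0.37 to 0.08 for Gadd45a (-0.14). Over these genes and alternatives, 1927 values kept their direction and side of the threshold, 45 turned sign and 1 passed the threshold. The replicate block changed no call.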
